A study of Mus musculus with 12 samples.

Results

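Luteolin added to an adipogenic hormone mix was compared with the mix alone in 3T3-L1 cells, a mouse fibroblast-like line that can be turned into fat-storing adipocytes in culture. The comparison uses 6 of the 12 RNA-seq libraries of the series, 3 titled DMI_Luteolin and 3 titled DMI, picked by sample title and not by any measured value. Both groups are wild-type cells taken on day 6. Both were induced from 2 days after confluence with 0.5 mM IBMX, 1 uM dexamethasone and 10 ug/ml insulin in 10% serum until day 2, and were then kept for 2 days in serum with insulin and afterwards in serum alone. The luteolin group had luteolin as well, at a dose and for a time that the labels used here leave out. The other 6 libraries were 3 of untreated cells and 3 of cells given the mix with quercetin. They entered the test through the low-count filter, the scaling of counts and the shared estimate of the spread. In a fit with the replicate number as a block they also entered through its replicate terms. The sample texts print one induction protocol for all 4 groups, so what marks the untreated cells is their title and the treatment entry. No label ties a replicate to a culture of its own, and a p-value therefore reflects the spread among these libraries, which may be technical.

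Adipogenesis in 3T3-L1 cells runs through a cascade in which the C/EBP factors induced by dexamethasone and IBMX switch on Pparg and Cebpa, which then drive the genes of fatty acid synthesis, triglyceride storage, insulin-responsive glucose uptake and adipokine secretion. Imprinted genes, which are expressed from 1 parental allele, are another layer of control: Plagl1 is a zinc finger factor known to regulate other imprinted growth genes, H19 among them. Luteolin is a plant flavone.

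Total counts ran from 14522182 to 16590893 over the 6 libraries. Levels are given in CPM, counts scaled to 1 common library total after TMM, a correction for differences in RNA composition. Of 24 mature adipocyte markers 22 passed the low-count filter, and 1 had no count in the 6 libraries. Adipoq, the adiponectin gene, lay between 396 and 1880 CPM in the 6 libraries beside an untreated mean of 0.869 CPM, although the cell type entry calls all samples preadipocytes. The third library of each group stood apart. The summed level of 24 mature adipocyte markers was 29230, 33180 and 9051 CPM in DMI libraries 1 to 3 and 16890, 19020 and 7718 CPM in luteolin libraries 1 to 3. Mitochondrial transcripts took 4.72%, 4.28% and 2.87% of counts in the DMI libraries and 4.41%, 4.73% and 2.91% in the luteolin libraries. Among defining markers of other cell types, the 6 macrophage genes summed to 8.43 to 10.1 CPM with DMI and 12.2 to 15.4 CPM with luteolin, the 5 endothelial genes to at most 2.06 CPM and the 4 epithelial genes to at most 1.85 CPM in any of the 6 libraries. The 5 muscle genes summed to 8.61 to 27.2 CPM with DMI and 5.58 to 14.5 CPM with luteolin, nearly all of it Des, and 3 of the 5 had no count. The 8 osteoblast and chondrocyte genes summed to 80.8 to 125 CPM with DMI and 115 to 150 CPM with luteolin, led by Sox9 and Runx2. These 2 genes were also present in the untreated cells of the line, at means of 100.7 and 58.25 CPM, above their DMI means of 54.0 and 37.5 CPM. The part of these markers in the results was not tested.

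Of 14855 genes tested, 3 changed between luteolin with DMI and DMI alone (0.0202% of genes tested, adjusted p under 0.05 by edgeR's quasi-likelihood test over all 12 libraries). All 3 fell, and they are H19, Plagl1 and Gfra1. No gene was called higher by edgeR, with 336 genes higher and 568 lower at an unadjusted p under 0.05, while DESeq2 called 33 lower and 15 higher. Same-numbered libraries of the 2 groups deviated together (r = 0.261, 0.337 and 0.59), so the test was also run with the replicate number as a block. Libraries 1 and 2 were not told apart by this, since the swapped pairs gave 0.226 and 0.367. The block also spans the untreated and quercetin libraries, for which no such check was made. With that block 25 genes were called (0.168%), 21 lower (0.141%) and 4 higher (0.0269%), and the 3 genes above were among them. All 25 moved in 1 direction in all 3 same-numbered pairs. Of the 25, 19 had luteolin and DMI libraries that did not overlap, a state found in 11.5% of all genes tested. Both states follow in part from picking genes by this fit on the same values, and they are no separate support. Without the third DMI and luteolin libraries 12 of the 25 passed and 13 did not.

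Plagl1 (ENSMUSG00000019817, chromosome 10, 13060504 to 13131694, GRCm38, plus strand) stood at 42.9, 34.7 and 26.9 CPM in the DMI libraries and at 11.5, 10.0 and 10.6 CPM in the luteolin libraries. The luteolin values lay close together and below every DMI value. The mean went from 34.8 ± 8.0 to 10.7 ± 0.758 CPM (SD, n = 3 per group), a ratio of 3.25. By edgeR its log2 fold change was -1.70 (SE 0.22) at an adjusted p of 0.0357.

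H19, an imprinted long noncoding RNA (ENSMUSG00000000031, chromosome 7, 142575529 to 142578143, minus strand), stood at 15.8, 19.5 and 21.2 CPM with DMI and at 5.59, 4.19 and 4.99 CPM with luteolin. All 3 luteolin libraries were again below all DMI libraries, and here the third DMI library was the highest of its group, unlike for the adipocyte genes. The mean was 18.8 ± 2.78 CPM with DMI and 4.92 ± 0.703 CPM with luteolin (SD, n = 3), and edgeR put the log2 fold change at -1.93 (SE 0.23) with an adjusted p of 0.0299.

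Gfra1, the co-receptor that binds the neurotrophic factor GDNF (ENSMUSG00000025089, chromosome 19, 58235604 to 58455909, minus strand), stood at 25.6, 17.3 and 29.1 CPM with DMI and at 10.2, 10.3 and 10.7 CPM with luteolin. The luteolin libraries were nearly level and all lower than the lowest DMI library. The mean fell from 24.0 ± 6.09 to 10.4 ± 0.273 CPM (SD, n = 3), a log2 fold change of -1.21 (SE 0.17) with an edgeR adjusted p of 0.0433. Per length, the authors' deposited FPKM averaged 4.46, 7.68 and 4.40 with DMI and 1.37, 2.00 and 1.90 with luteolin for Plagl1, H19 and Gfra1, so all 3 are low-abundance transcripts beside Scd1 at 2146 FPKM with DMI.

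These 3 calls rest on more than the 6 libraries compared, and no gene was called by edgeR without any 1 of the untreated libraries, DMI library 1 or any 1 luteolin library. In a fit of the 6 libraries alone the adjusted p was 0.157 for Plagl1 and H19 and 0.673 for Gfra1, with log2 fold changes of -1.69, -1.93 and -1.21. Limma-voom gave 0.0582, 0.0582 and 0.116, and DESeq2 gave 1.41e-08, 1.44e-10 and 6.06e-07. With the replicate block the adjusted p was 0.0168, 0.0168 and 0.0204, and with the third DMI and the third luteolin library left out it was 0.0253, 0.0344 and 0.0414. Over the alternatives run, the log2 fold change stayed between -1.85 and -1.52 for Plagl1 (12 of 24 called), between -2.05 and -1.82 for H19 (13 of 23) and between -1.39 and -1.04 for Gfra1 (10 of 24). In the authors' deposited table the adjusted p was 3.26e-11 for Plagl1, 3.62e-13 for H19 and 0.00101 for Gfra1.

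**Figure D1:**
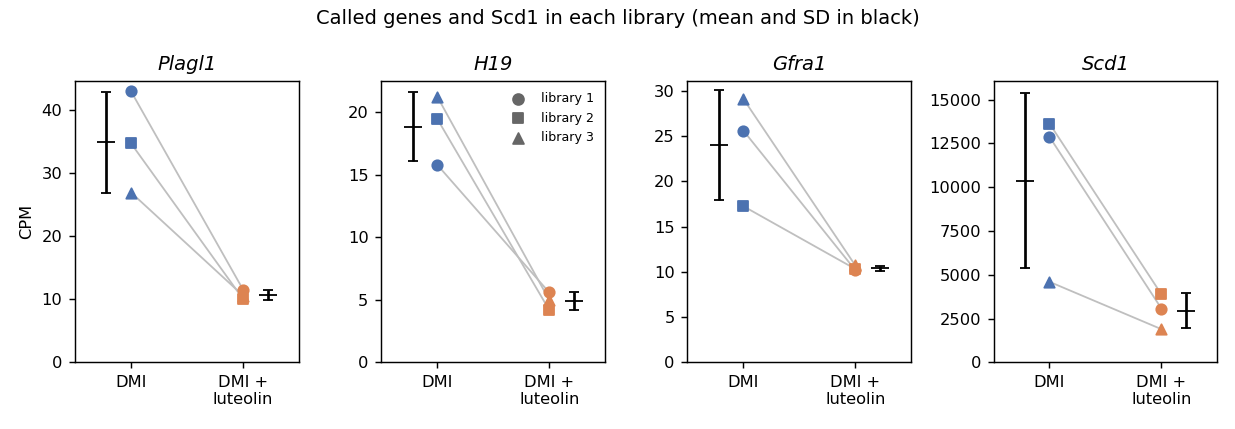
CPM (y axis, from 0) of Plagl1, H19, Gfra1 and Scd1 in the 3 DMI and the 3 luteolin libraries, with same-numbered libraries joined by a line and the mean ± SD of each group in black. In all 4 genes each luteolin library lies below each DMI library, but the DMI values of Scd1 spread from 4599 to 13630 CPM.

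Imprinted genes as a list did not move one way. Of 27 listed genes 19 were tested, and 2 fell (Plagl1 and H19) while none was called higher. The list's median log2 fold change was 0.02, beside -0.02 over all genes tested. With library totals as the scaling the list's median was 0.09, beside 0.047 over all genes. Igf2, Cdkn1c, Phlda2, Meg3, Mirg, Zim1, Magel2 and Asb4 did not pass the low-count filter. Peg3, an imprinted zinc finger gene, stood at 123, 117 and 107 CPM with DMI and at 87.4, 85.8 and 81.1 CPM with luteolin (log2 fold change -0.45, adjusted p = 0.509). Peg10 stood on the other side, at 264, 240 and 250 CPM with DMI and at 335, 335 and 270 CPM with luteolin (0.32, adjusted p = 0.817). In the GDNF list 6 of 12 genes were tested and Gfra1 alone was called. Ret, the signalling receptor that works with Gfra1, did not pass the filter, while Ncam1, an alternative partner, stood at 0.46 (adjusted p = 0.91).

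A further 3 genes shared the pattern of Gfra1, with non-overlapping libraries, a DMI mean below the untreated mean and a luteolin mean lower again, and were called with the block. Cpz, a secreted carboxypeptidase with a Wnt-binding domain, stood at 7.11, 9.39 and 6.28 CPM with DMI and at 1.75, 1.71 and 1.86 CPM with luteolin. Its log2 fold change was -2.09 without the block (SE 0.33, adjusted p = 0.0841) and -2.07 with it (SE 0.28, adjusted p = 0.0168 by edgeR). Prokr1, a prokineticin receptor gene, stood at 14.4, 12.6 and 17.4 CPM with DMI and at 4.54, 6.67 and 6.06 CPM with luteolin (adjusted p = 0.0585 without the block, 0.0392 with it). Nrk, a kinase gene, stood at 7.74, 6.23 and 9.05 CPM with DMI and at 1.16, 2.18 and 3.13 CPM with luteolin (0.329 and 0.0448). The untreated means were 52.1 CPM for Plagl1, 38.5 for H19, 54.8 for Gfra1, 9.37 for Cpz, 28.2 for Prokr1 and 12.3 for Nrk. The means with quercetin were 14.7, 11.9, 17.1, 1.47, 10.4 and 2.23 CPM in the same order, at a dose not known to match.

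RefSeq promoters (GRCm38.p6) were found for 21 of the 25 genes called in either fit. The 250 bases before the start are shown for 4 of the lower genes that were not adipocyte genes, chosen after their values were seen, 5′ to 3′ on the gene's strand. Capitals mark exact matches on either strand to the GC box GGGCGG, the CCAAT box CCAAT, the aryl hydrocarbon receptor core GCGTG, the nuclear receptor half-site AGGTCA and the glucocorticoid receptor half-site AGAACA.
Plagl1 promoter, chr10:13090582-13090831 (+ strand): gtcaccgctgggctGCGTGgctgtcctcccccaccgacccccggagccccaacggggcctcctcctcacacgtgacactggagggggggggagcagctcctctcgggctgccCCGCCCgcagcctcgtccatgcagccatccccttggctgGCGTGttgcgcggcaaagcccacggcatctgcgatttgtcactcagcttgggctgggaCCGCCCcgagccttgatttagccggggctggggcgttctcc
Gfra1 promoter, chr19:58455399-58455648 (- strand): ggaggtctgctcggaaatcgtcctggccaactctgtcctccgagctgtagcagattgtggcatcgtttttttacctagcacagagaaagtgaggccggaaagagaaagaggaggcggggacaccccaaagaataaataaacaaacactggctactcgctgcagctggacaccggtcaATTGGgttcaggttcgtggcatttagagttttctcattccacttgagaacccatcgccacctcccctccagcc
Cpz promoter, chr5:35525627-35525876 (- strand): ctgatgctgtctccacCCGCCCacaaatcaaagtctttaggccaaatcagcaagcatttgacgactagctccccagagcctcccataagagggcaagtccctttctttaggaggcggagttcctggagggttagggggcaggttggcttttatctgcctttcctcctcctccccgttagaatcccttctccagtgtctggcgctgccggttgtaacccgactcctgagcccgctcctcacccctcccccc
Prokr1 promoter, chr6:87590744-87590993 (- strand): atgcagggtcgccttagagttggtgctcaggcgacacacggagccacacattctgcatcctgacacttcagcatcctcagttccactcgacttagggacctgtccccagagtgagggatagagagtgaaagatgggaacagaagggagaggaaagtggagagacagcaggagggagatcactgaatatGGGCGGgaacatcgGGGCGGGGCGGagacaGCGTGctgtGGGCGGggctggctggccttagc
The Plagl1 window holds 2 GC boxes and 2 GCGTG cores, the Prokr1 window 4 GC boxes and 1 GCGTG core, the Cpz window 1 GC box and the Gfra1 window 1 CCAAT box. Over the 21 genes, 14 had a GC box in at least 1 window of that length, beside 32.7% of all 32851 promoters of the table, 6 had a GCGTG core (28.2%), 8 a CCAAT box (33.8%), 5 a glucocorticoid receptor half-site (16.1%) and 3 a nuclear receptor half-site (14.0%). The E-box CANNTG, not capitalised, was in 16 of 21 (66.2%). Some genes have several windows, and a match is a string of letters, not a binding site.

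The 4 genes that rose in the fit with the block were Ptgs2, Prl2c2, Aqp1 and Clca3a1. Ptgs2, the inducible cyclooxygenase of prostaglandin synthesis, stood at 1.20, 0.685 and 2.52 CPM with DMI (19, 10 and 41 counts) and at 5.01, 5.43 and 7.19 CPM with luteolin (86, 92 and 108 counts), near the untreated mean of 4.99 CPM. Its log2 fold change was 2.10 (SE 0.28, adjusted p = 0.0168 with the block, 0.454 without). Clca3a1, of a family of chloride channel regulators, stood at 105, 91.9 and 112 CPM with DMI and at 168, 170 and 164 CPM with luteolin (0.70, adjusted p = 0.0448 with the block, 0.0841 without). Aqp1, a water channel gene, went from 7.36, 6.92 and 18.2 CPM to 23.0, 19.8 and 45.3 CPM (1.46, adjusted p = 0.0448 with the block). Prl2c2, a prolactin-family gene, went from 3.40, 2.12 and 4.31 CPM to 10.2, 7.14 and 11.2 CPM (1.56, adjusted p = 0.0168 with the block). Prl2c2 and Clca3a1 have close paralogs, and the split of counts between copies is uncertain. In the prostaglandin list 13 of 19 genes were tested. None was called without the block by edgeR (1 lower and 1 higher at an unadjusted p under 0.05, 1 higher by DESeq2), and with it Ptgs2 was. Over all 14855 genes tested, 568 were lower and 336 higher at that unadjusted p, and DESeq2 called 15 higher. The list median was 0.03, and Pla2g4a, which frees arachidonic acid from membranes, stood at 0.38 (adjusted p = 0.863).

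Among the 21 genes called lower with the block, 4 are adipocyte panel genes. Mgll, the monoglyceride lipase that completes triglyceride breakdown, stood at 56.3, 66.6 and 14.2 CPM with DMI and at 7.74, 13.5 and 4.92 CPM with luteolin. All luteolin values were below all DMI values, and the third library was lowest in both groups. Its log2 fold change was -2.28 (SE 0.33, adjusted p = 0.0204 with the block by edgeR, 0.329 without). Pck1, which supplies glycerol for triglyceride, stood at 61.7, 59.6 and 15.8 CPM with DMI and at 12.9, 18.5 and 5.06 CPM with luteolin (-1.87, adjusted p = 0.0128 with the block). Klf15, a transcription factor of the adipogenic cascade, stood at 53.0, 64.9 and 12.3 CPM with DMI and at 17.1, 19.9 and 4.86 CPM with luteolin (-1.58, adjusted p = 0.0425 with the block). In Pck1 and Klf15 the groups overlapped, because the third DMI library lay among the luteolin libraries. Lep, the leptin gene, had 40, 57 and 11 counts with DMI and 3, 5 and 1 with luteolin (-3.64, adjusted p = 0.0448 with the block). Pnpla3, a lipid droplet acyl hydrolase gene, stood at 39.4, 45.5 and 10.5 CPM with DMI and at 8.03, 8.85 and 3.19 CPM with luteolin (-2.16, adjusted p = 0.0168 with the block).

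The others called lower with the block were Steap4, a metalloreductase gene (91.7, 98.6 and 19.3 CPM with DMI, 23.9, 28.3 and 8.45 CPM with luteolin, adjusted p = 0.00915 with the block), Tmem182, the sulfate transporter gene Slc13a4, the cytochrome P450 gene Cyp2f2, the methyltransferase gene Smyd1, and 5 less described loci, 2610528A11Rik, Pitpnm2os1, Gm35853, AA914427 and Gm37975. Steap4 had the smallest adjusted p of the block fit, although its groups overlapped. Pitpnm2os1 and Gm35853 are annotated antisense, and without strand information their reads cannot be told apart from those of the genes they overlap. These 10 genes had untreated means of at most 0.365 CPM, against DMI means of 5.08 to 69.9 CPM.

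**Figure D2:**
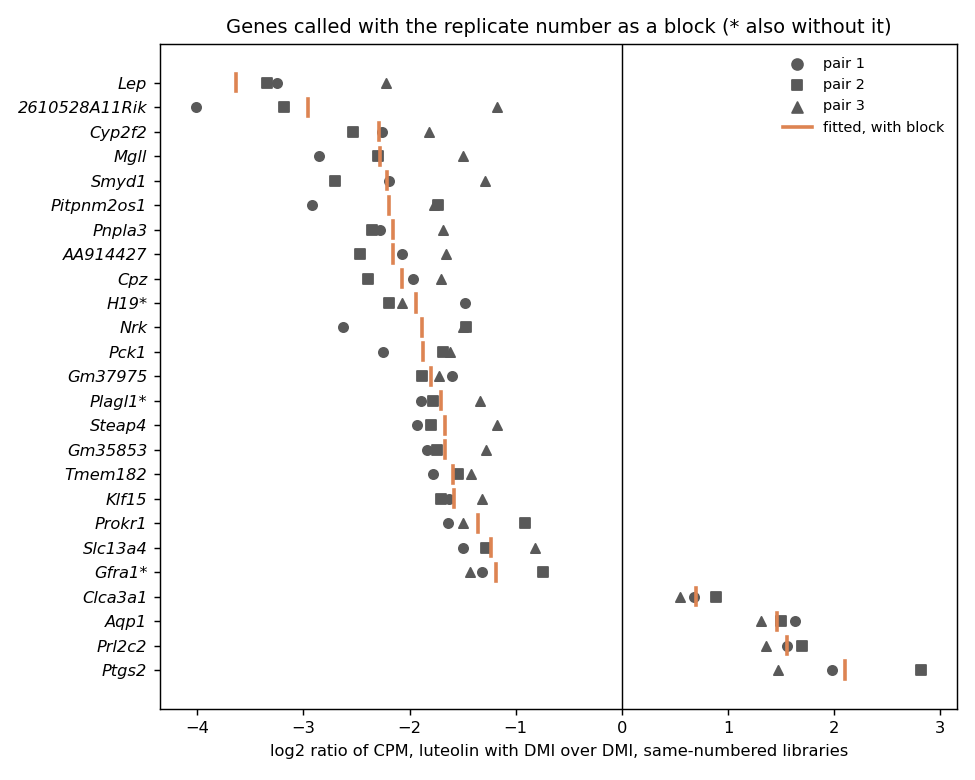
Log2 ratio of CPM (x axis, with 0.1 CPM added to both values) between luteolin and DMI libraries of the same number, for the 25 genes called with the replicate block, with the fitted log2 fold change as an orange line. All 3 pairs of each gene lie on 1 side of 0, and in the adipocyte genes Mgll, Klf15, Lep and Pnpla3 the third pair is nearest to 0. The block fit that picked these genes favours pairs that agree.

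None of the 19 panel genes, which are adipocyte genes and the preadipocyte gene Dlk1, was called without the block by edgeR. At an unadjusted p under 0.05 there were 7, beside 904 of all 14855 genes tested, and DESeq2 called 3, beside 48. With the block 4 were called, beside 0.168% of all genes tested. In the fit with the block and the 6 libraries alone 15 were called, Dlk1 among them. That fit called 6.58% of its genes (4.41% lower, 2.17% higher). All 19, Dlk1 included, had a log2 fold change below 0, beside 53.2% of all genes tested (18 with library totals, where Cebpb was at 0.01). In 3 of them (Scd1, Mgll and Lep) the luteolin libraries were all below the DMI libraries, a state found in 5.24% of all genes tested. Scd1, the desaturase that makes monounsaturated fatty acids, stood at 12870, 13630 and 4599 CPM with DMI and at 3070, 3882 and 1895 CPM with luteolin. Its mean was 3.52-fold lower (-1.81 on the log2 scale, SE 0.39, with an edgeR adjusted p of 0.364, or 0.10 with the block, and 0.00196 by DESeq2). With the third DMI and luteolin libraries left out it passed (-1.93, adjusted p = 0.0286), as did Mgll (-2.53, adjusted p = 0.00526). The other panel genes called with the block did not pass there, with an adjusted p of 0.0662 for Pck1, 0.0671 for Klf15 and 0.0535 for Lep, and neither did Steap4 (0.0982), Ptgs2 (0.11) and Prl2c2 (0.104).

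Of the 5 transcription factors in the panel, Klf15 was the one called with the block. Cebpb, an early factor of the cascade, stood at -0.06 (adjusted p = 0.998), Srebf1, the lipogenic factor, at -0.26 (0.988), Pparg at -0.59 (0.943) and Cebpa at -0.60 (0.97). Pparg was at 346, 357 and 101 CPM with DMI and at 204, 231 and 97.6 CPM with luteolin, so the first and second libraries were lower with luteolin while the third ones were nearly level. Slc2a4, the insulin-responsive glucose transporter gene, was at 142, 164 and 36.0 CPM with DMI and at 40.6, 47.0 and 18.3 CPM with luteolin (-1.69, adjusted p = 0.617, 0.0864 with the block). Fasn, the fatty acid synthase gene, was at 2654, 2785 and 1293 CPM and at 1195, 1344 and 844 CPM (-0.99, adjusted p = 0.509). Fabp4, the fatty acid carrier gene, was at 2958, 3896 and 840 CPM and at 1812, 2076 and 794 CPM (-0.72, adjusted p = 0.994), and Plin1, the lipid droplet coat gene, was at -0.65 (adjusted p = 0.995). Adipoq was at -0.44 (adjusted p = 0.998) and Lpl, the lipoprotein lipase gene, at -0.41 (adjusted p = 0.987), the smallest differences among the panel's effector genes. Dlk1, a preadipocyte gene that holds back adipogenesis, was at 1739, 1562 and 3120 CPM with DMI and at 1209, 994 and 2039 CPM with luteolin (-0.60, adjusted p = 0.852). Dlk1 was lower with luteolin in each pair, and the third library was its highest in both groups. In the third pair 4 panel genes were not lower with luteolin, with log2 ratios of 0.33 for Cebpb, 0.13 for Srebf1, 0.05 for Lpl and 0.03 for Cebpa. In these bulk libraries, fewer differentiated cells and less RNA of a gene per cell cannot be told apart.

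**Figure D3:**
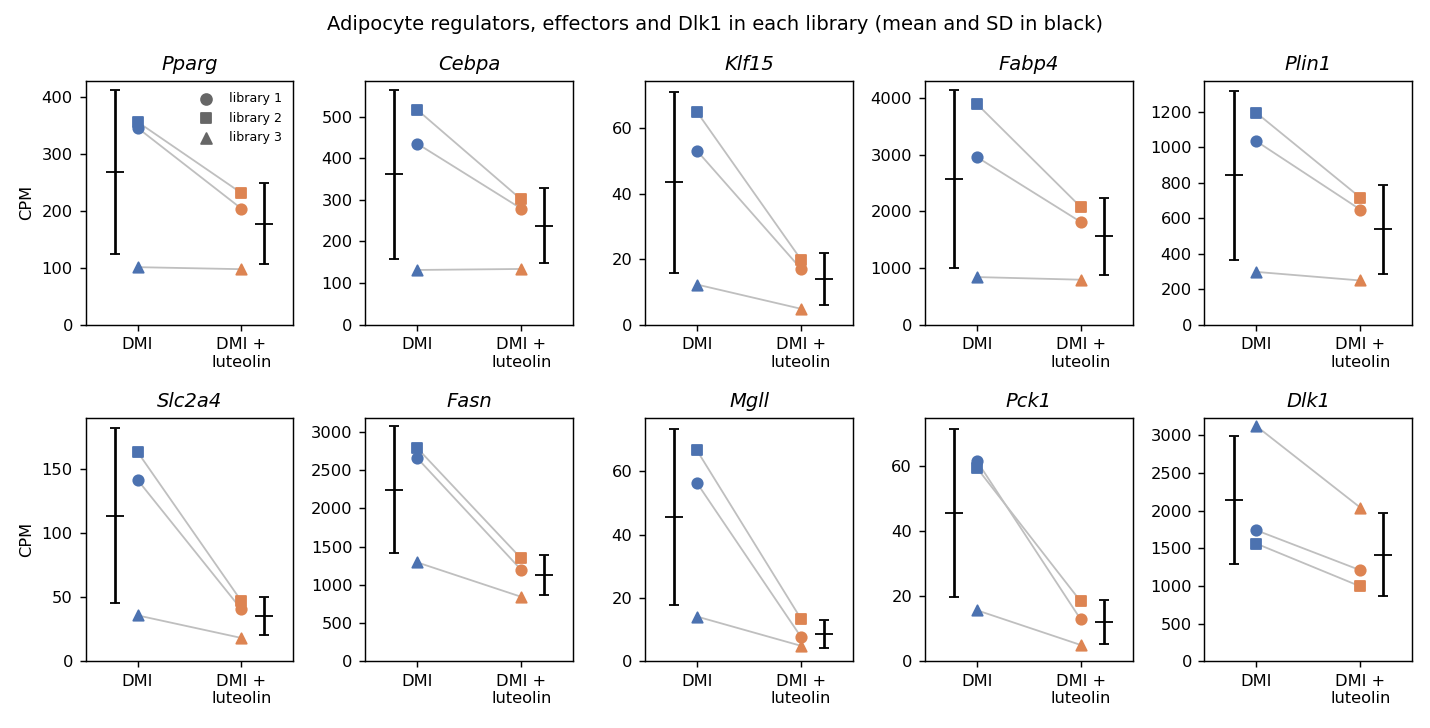
CPM (y axis, from 0) of 9 adipocyte genes and of Dlk1 in each DMI and luteolin library, with same-numbered libraries joined by a line and the mean ± SD in black. The third library (triangle) is lowest in both groups for the adipocyte genes and highest for Dlk1, and the lines run downwards in all pairs except the third pair of Cebpa, which is nearly level.

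Gene lists are described next by their calls in the fits over all 12 libraries, and the fit with the block and the 6 libraries alone is given for each list after them. Over all genes tested 53.2% had a log2 fold change below 0. Of these 14855 genes 568 were lower and 336 higher at an unadjusted p under 0.05 by edgeR. DESeq2 called 33 of them lower and 15 higher. The block over all 12 libraries called 0.141% lower and 0.0269% higher. The counts given for each list are to be read beside these. In the adipogenic transcription factor list 14 of 20 were below 0 (11 with library totals), the median was -0.09 and Klf15 was called with the block. All 22 tested mature adipocyte markers of 24 had a log2 fold change below 0 (median -1.10, 21 below 0 with library totals). None was called without the block by edgeR (9 lower at an unadjusted p under 0.05, 1 by DESeq2), and 2 were with it (Lep and Pck1). Of 19 tested genes of fatty acid and triglyceride synthesis 17 were below 0 (median -0.57), with 0 called by edgeR over all 12 libraries with or without the block, 10 lower at an unadjusted p under 0.05 and 1 lower by DESeq2. Their libraries did not overlap, with luteolin lower, in 6 of 19 (5.24% of all genes tested), namely Scd1, Thrsp, Scd2, Acly, Elovl5 and Fads2. Thrsp, a lipogenic regulator gene, stood at 349, 443 and 168 CPM with DMI and at 92.4, 116 and 69.7 CPM with luteolin (-1.79, adjusted p = 0.495). Scd2 was at -0.62 (adjusted p = 0.632), and reads of the closely related Scd genes may be split between them. Of the 12 lipolysis genes 10 were below 0 (median -0.71), with none called without the block by edgeR (4 lower at an unadjusted p under 0.05, 1 by DESeq2) and Mgll and Pnpla3 called with it. G0s2, an inhibitor of triglyceride lipase, stood at -1.40 (adjusted p = 0.732), on the same side as the lipases.

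All 19 tested fatty acid oxidation genes were below 0 (median -0.51, 18 with library totals), with 0 called by edgeR over all 12 libraries or by DESeq2 and 4 lower at an unadjusted p under 0.05. One of the list was Hadhb, a subunit of the trifunctional protein, at 366, 366 and 135 CPM with DMI and at 196, 207 and 101 CPM with luteolin (-0.78, adjusted p = 0.803, but 0.00263 with the block and the 6 libraries alone and 0.0373 without the third DMI and luteolin libraries). All 21 respiratory chain subunits were below 0 (median -0.33), with 0 called by edgeR over all 12 libraries or by DESeq2 and 0 at an unadjusted p under 0.05. Of the 5 tested brown and beige genes (13 listed, Ucp1 and Prdm16 not passing the filter) none was called by edgeR (2 lower at an unadjusted p under 0.05, 1 by DESeq2). Among them Cox8b, a respiratory subunit gene of brown fat, was at 15.9, 21.4 and 7.88 CPM with DMI and at 3.03, 4.90 and 2.86 CPM with luteolin (-2.06, adjusted p = 0.454). Cholesterol synthesis genes had 21 of 22 tested members below 0 (median -0.24, 19 with library totals), with 0 called by edgeR or DESeq2 and 4 lower at an unadjusted p under 0.05. Their libraries did not overlap, with luteolin lower, in 6 of 22 (5.24% of all genes tested). Sqle, the squalene epoxidase gene, was at 287, 296 and 184 CPM with DMI and at 163, 169 and 161 CPM with luteolin (-0.64, adjusted p = 0.617). Of 18 genes of insulin signalling and glucose uptake 14 were below 0 (median -0.31), with 0 called by edgeR, 3 lower at an unadjusted p under 0.05 and 1 by DESeq2. Igfbp5, an IGF binding protein gene, was at 16.0, 13.0 and 24.0 CPM with DMI and at 5.59, 6.90 and 9.85 CPM with luteolin (-1.25, adjusted p = 0.391, 0.0772 with the block).

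Interferon response genes were all below 0 (23 of 23, median -0.68), with 10 lower at an unadjusted p under 0.05 and none called by edgeR or DESeq2. The third DMI library was the highest for this list, at a summed 1660 CPM beside 595 to 856 CPM in the other 5. Mx1, an antiviral GTPase gene, stood at 21.3, 12.5 and 34.0 CPM with DMI and at 9.66, 13.5 and 7.52 CPM with luteolin. Without the third DMI library the list median was -0.05, and without the third DMI and luteolin libraries -0.03. Inflammatory genes had a median of 0.14 over 15 tested genes, with 0 called by edgeR or DESeq2 and 1 higher at an unadjusted p under 0.05, and Vcam1, an adhesion molecule gene, stood at 0.45 (adjusted p = 0.75).

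Among the aryl hydrocarbon receptor and its targets 6 of 9 were tested, 5 of them above 0 (median 0.20, beside -0.02 over all genes), and none was called by edgeR or DESeq2 (1 higher at an unadjusted p under 0.05). That gene was Nqo1, which is also in the NRF2 list and is counted in both. Cyp1b1 was at 282, 268 and 366 CPM with DMI and at 321, 328 and 376 CPM with luteolin (0.16, SE 0.18, adjusted p = 0.995), and Cyp1a1, Cyp1a2 and Ahrr did not pass the filter. The NRF2 antioxidant list had a median of -0.07 (10 of 19 below 0 with library totals, 13 with TMM), none of 19 called by edgeR or DESeq2 and 2 higher at an unadjusted p under 0.05. Its libraries did not overlap, with luteolin higher, in 5 of 19 (6.23% of all genes tested), which are Nqo1, Hmox1, Gclc, Txnrd1 and Fth1, named after their values were seen. Nqo1, a quinone reductase gene, was at 14.1, 14.9 and 13.7 CPM with DMI and at 18.9, 18.6 and 26.7 CPM with luteolin (0.59, SE 0.16, adjusted p = 0.49). Fth1, the ferritin heavy chain gene, was at 2758, 2692 and 2748 CPM and at 3634, 3319 and 3506 CPM (0.35, SE 0.13, adjusted p = 0.718). Glucocorticoid response genes had a median of -0.06 over 14 genes (0.01 with library totals), with 0 called by edgeR or DESeq2 and 3 lower and 2 higher at an unadjusted p under 0.05. Dusp1 had the smallest p of the list by edgeR. It stood at 36.7, 44.5 and 28.6 CPM with DMI and at 19.4, 21.9 and 27.15 CPM with luteolin (-0.68, adjusted p = 0.53). Errfi1, a feedback inhibitor gene of EGF receptor signalling, was at -0.56 (adjusted p = 0.634) and Fkbp5, a chaperone gene induced by dexamethasone, at 0.41 (adjusted p = 0.751).

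Of 13 tested contractile and serum response genes 12 were above 0 (median 0.29), with none called by edgeR or DESeq2 and 0 at an unadjusted p under 0.05. Acta2, smooth muscle actin, was at 52.5, 41.3 and 144 CPM with DMI and at 120, 97.6 and 172 CPM with luteolin (0.71, adjusted p = 0.878). Preadipocyte and matrix genes had a median of -0.08 over 22 genes, with 0 called by edgeR or DESeq2 and 1 higher at an unadjusted p under 0.05. Thy1, a fibroblast surface gene, was at 30.6, 31.2 and 46.4 CPM with DMI and at 53.2, 45.5 and 73.0 CPM with luteolin (0.67, adjusted p = 0.543), whereas Col1a1 stood at -0.42 (adjusted p = 0.85). In the cell cycle list (20 genes, median 0.04) 0 were called by edgeR or DESeq2, and 1 was lower and 2 higher at an unadjusted p under 0.05. Ccnd1, cyclin D1, was at 48.3, 39.9 and 126 CPM with DMI and at 122, 113 and 193 CPM with luteolin (1.00, adjusted p = 0.718, and 0.0264 without the third DMI and luteolin libraries). The Wnt list had a median of -0.02 over 12 genes (0.04 with library totals), with Cpz as its one member called with the block, and the ATF4 and endoplasmic reticulum stress list one of -0.07 over 16 genes with 0 called by edgeR or DESeq2 (2 lower at an unadjusted p under 0.05), Asns being at -0.32 (adjusted p = 0.812).

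With the replicate block and the 6 libraries alone, which called 4.41% of all genes lower and 2.17% higher, calls in the lists were more numerous. That fit called lower 20 of 22 mature adipocyte markers, 14 of 19 genes of fatty acid and triglyceride synthesis, 14 of 19 of fatty acid oxidation, 7 of 11 of lipolysis, 9 of 22 of cholesterol synthesis, 6 of 18 of insulin signalling and glucose uptake, 5 of 21 respiratory chain subunits, 4 of 20 adipogenic transcription factors and 2 of 5 brown and beige genes, and none of these lists had a member called higher. It called 2 of 22 interferon genes lower and none higher, and 2 of 16 stress genes lower and none higher. In the imprinted list 4 were called lower and 2 higher, in the NRF2 list 3 and 3, in the glucocorticoid list 3 and 2, in the preadipocyte and matrix list 3 and 2, in the inflammatory list 2 and 3 and in the prostaglandin list 1 and 2. The GDNF, Wnt and cell cycle lists had 1 lower and 1 higher each, the contractile list 2 higher and the aryl hydrocarbon receptor list 1 higher. The fit without the third DMI and luteolin libraries called 0.336% of 15171 genes lower and 0.125% higher. In it 2 were called lower each among mature adipocyte markers, lipolysis genes and imprinted genes. It called 1 lower each in the synthesis, fatty acid oxidation, insulin, GDNF and Wnt lists. It called 1 higher each in the inflammatory, cell cycle and osteoblast and chondrocyte lists, and a single call in a list is no result about that list.

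**Figure D4:**
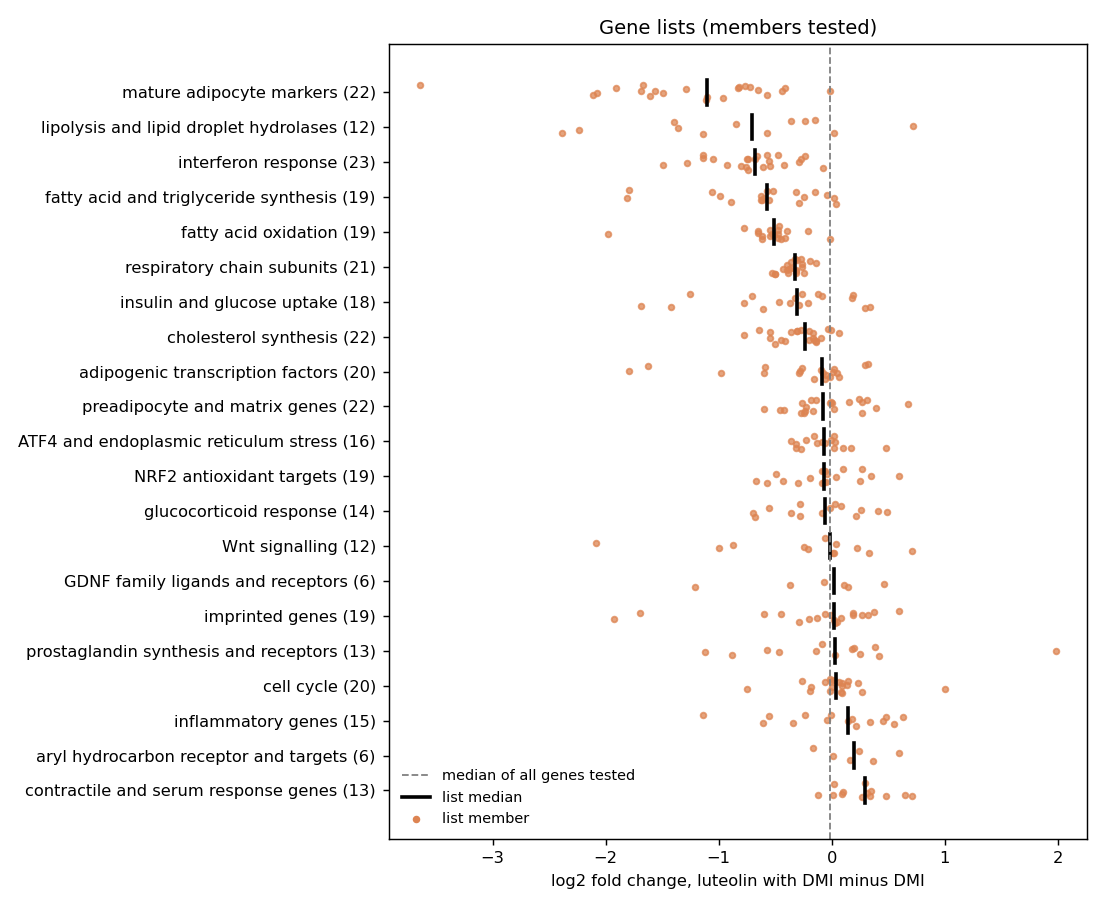
Log2 fold change (x axis) of each tested member of the 21 lists with at least 6 tested genes, with the list median as a black bar and the median of all genes tested, -0.02, as a dashed line. Mature adipocyte markers have the lowest median at -1.10 and contractile and serum response genes the highest at 0.29, and the members of each list spread widely.

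The number of genes called differed widely between settings. It was 0 by limma-voom and 0 by edgeR with only the 6 libraries, with 807 and 881 genes at an unadjusted p under 0.05, and 929 once the replicate block was added there. Leaving out the third DMI library alone gave 259 calls, and leaving out the third DMI and the third luteolin library together gave 70, 51 lower (0.336%) and 19 higher (0.125%) of 15171 genes (0.461%). The authors' deposited table lists 61 genes under 0.05, 39 lower and 22 higher, and 17 of the 25 block calls are among them.

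**Figure D5:**
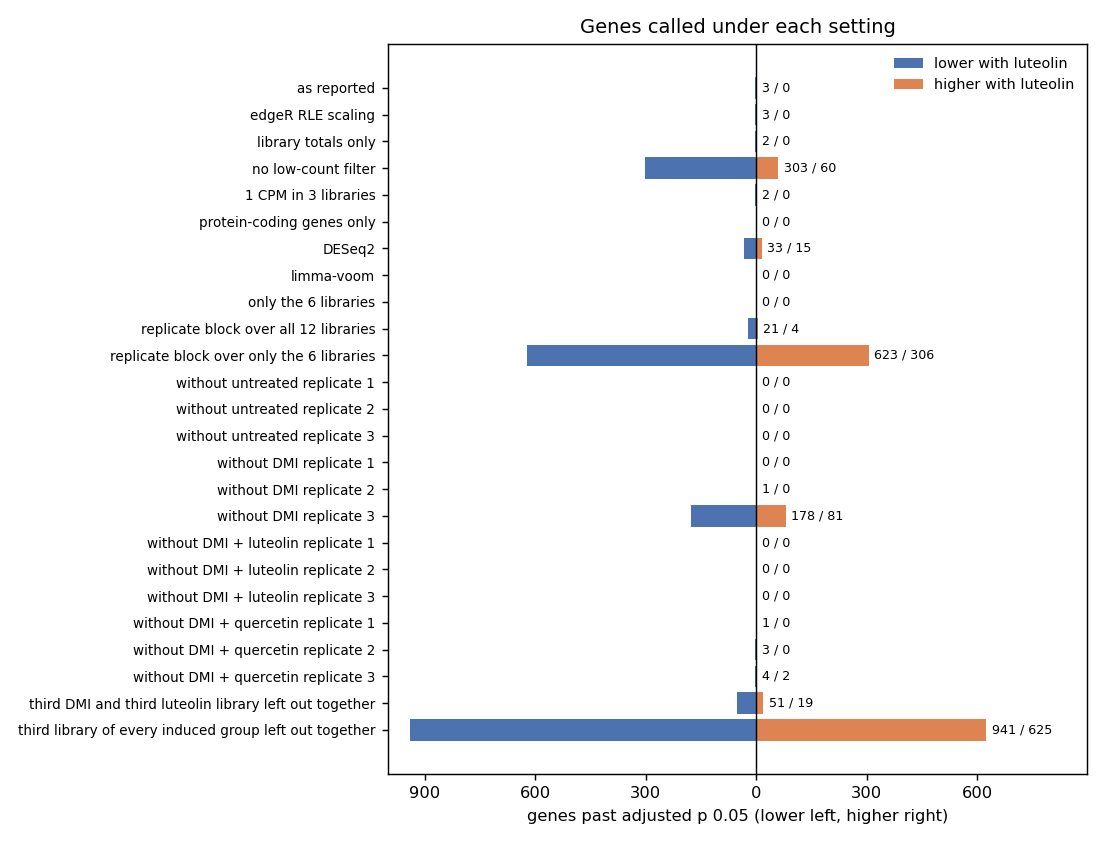
Genes past an adjusted p of 0.05 (x axis) under each setting, lower with luteolin to the left and higher to the right, with both counts printed. Counts run from 0 to 1566, and lower genes outnumber higher ones wherever any gene is called.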

How the data were processed

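RNA of 3T3-L1 cells was sequenced, 3 libraries in each of 4 groups, grouped by sample title. The authors' table gives unnormalized counts for each gene, with featureCounts 1.5.0-p3 and CASAVA 1.8.2 named in the submitters' processing notes. Which aligner was used, and whether strand was used, is not stated in the labels or notes. The notes give mm9 as the build, but 98.3% of the gene positions equal GENCODE M21, so coordinates are given as GRCm38. The authors' deposited FPKM values were used for levels per length only, and log2 values and p-values from the authors' deposited table are named as such. All 27 date-like symbols were restored by gene identifier.

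Genes kept by filterByExpr (14855 of 54532 genes in the table, 25496 of which had no count) went into edgeR 4.0.16 (R 4.3.3): TMM scaling, quasi-likelihood fit with 1 term per group over all 12 libraries, Benjamini-Hochberg adjustment, threshold 0.05. DESeq2 1.42.0 and limma 3.58.1 (voom) were alternatives. The fit was also run on simulated counts, drawn independently for each library. They held no deviation shared by same-numbered libraries, so they cannot decide between the fits with and without the block. Replicates differed beyond counting noise in each pair (lowest chi-square per gene 4.07). Untreated libraries varied least (median SD of log2 CPM 0.105, against 0.244 for DMI, 0.173 for luteolin and 0.327 for quercetin).

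Same-numbered DMI and luteolin libraries deviated together (r = 0.261, 0.337 and 0.59), so by rule the number was treated as a pairing. The labels do not say what it marks, and for luteolin library 2 the higher correlation was with DMI library 1 (0.367). The block over all 12 libraries applied the same number to the untreated and quercetin libraries, where the pairing was not checked. Mitochondrial transcripts took 3.29%, 3.92% and 4.65% of counts in quercetin libraries 1 to 3, so the third was highest there and lowest with DMI (2.87%).

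Named genes are those called in either fit, a panel of 19 genes (adipocyte genes and the preadipocyte gene Dlk1), the 8 largest rises and 8 largest falls among protein-coding genes with a mean of at least 5 CPM and no overlap, and up to 4 members with the smallest p in each of 28 lists. The lists, panel and tests were chosen with earlier results of these data known. Promoters are RefSeq sequences, searched on both strands.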

Additional observations from a re-analysis of the deposited data

How the results depend on the processing

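The direction of H19, Plagl1 and Gfra1 was the same in every alternative that tested them (H19 not among protein-coding genes). Against 3 genes changed (3 lower, 0 higher), the count was 363 without a low-count filter (303 lower, 60 higher), 48 with DESeq2 (33 and 15), 25 with the replicate block over all 12 libraries (21 and 4), 929 with the block in only the 6 libraries (623 and 306), 70 without the third DMI and luteolin libraries (51 and 19) and 1566 without the third library of every induced group (941 and 625). It was 0 lower and 0 in all among protein-coding genes, with limma-voom and with only the 6 libraries (741, 807 and 881 genes at an unadjusted p under 0.05). RLE scaling gave 3, library totals 2 and 1 CPM in 3 libraries 2.

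Leaving out 1 library gave 0 to 259 genes, 0 to 178 lower and 0 to 81 higher. It was 0 without any 1 untreated library, DMI library 1 or any 1 luteolin library, 1 without DMI library 2 or quercetin library 1, 6 without quercetin library 3 and 259 without DMI library 3, and the cause was not tested. Fold changes that changed sign were those of Cebpb (0.01 with library totals, -0.21 to 0.08 with 1 library left out), Sdc3 (-0.24 to 0.76, below 0 without DMI library 1 or 2 or luteolin library 3), Csf1r (-0.60 and -0.57 without the third libraries, -0.25 to 0.63 with 1 library left out) and Gfra2 (0.63 with limma-voom, 1.20 and 1.22 without the third libraries, -0.92 to 1.58 with 1 library left out), the last 2 at under 2 CPM. Apart from the calls printed, the replicate block over all 12 libraries changed no call of a named gene. Depth limits the lowest genes most, with Lep resting on 1 to 57 counts a library.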

Other observations

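Among protein-coding genes with a mean of at least 5 CPM and no overlap between groups, several with the largest fold changes were called neither with nor without the block. Mfap4, a microfibril-associated matrix gene, stood at 57.1, 53.2 and 236 CPM with DMI and at 15.7, 15.8 and 52.9 CPM with luteolin (log2 fold change -2.04, adjusted p = 0.509 by edgeR, and 0.00492 without the third DMI and luteolin libraries), beside an untreated mean of 508 CPM. It thus lay farther from the untreated level with luteolin than with DMI alone. Apoc1, an apolipoprotein gene, stood at 30.3, 55.0 and 16.4 CPM and at 6.05, 11.5 and 6.72 CPM (-2.06, adjusted p = 0.454). Camp, the cathelicidin gene, stood at -1.88 and the desaturase gene Scd3 at -1.87 (both adjusted p = 0.454, and 0.0487 for Scd3 without the third DMI and luteolin libraries).

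On the higher side, Wisp2, a secreted matricellular gene, stood at 5.79, 4.66 and 8.68 CPM with DMI and at 14.5, 11.1 and 13.1 CPM with luteolin (1.01, adjusted p = 0.40), beside an untreated mean of 12.2 CPM and a quercetin mean of 13.6 CPM. Cdsn, the corneodesmosin gene, stood at 23.0, 18.98 and 36.2 CPM and at 44.8, 40.6 and 62.6 CPM (0.92, adjusted p = 0.40, and 0.0253 without the third DMI and luteolin libraries). S100a4, a calcium-binding protein gene, stood at 1.01 (0.0442 as adjusted p without those libraries), Clu, the clusterin gene, at 1.07 and Lrrc75b at 1.20 (adjusted p = 0.679, 0.751 and 0.489). Rps27rt, a retrogene copy of a ribosomal protein gene whose reads may come from its parent, stood at 1.28 (adjusted p = 0.803).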
